A study of Mus musculus with 18 samples.

Results

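The Hox genes of clusters A to D were examined in mouse embryonic stem (ES) cells differentiating towards blood and heart mesoderm. The members were chosen from the expression tables as rows whose symbol is Hoxa, Hoxb, Hoxc or Hoxd followed by a number, and those described are 37 of 20321 genes, 10 in cluster A, 10 in B, 9 in C and 8 in D. The samples came from the GFP-Bry ES cell line, in which green fluorescent protein sits at the Brachyury locus and marks mesoderm. Embryoid bodies, free-floating aggregates of differentiating ES cells, were dissociated at day 3. Cells positive for GFP were sorted by the surface proteins endoglin (E, gene Eng) and Flk-1 (F, gene Kdr). E+F+ cells, E+F- cells and unsorted cells were each reaggregated for 24 h with 10 µM IWR-1, an inhibitor of canonical Wnt signalling that stabilises Axin, or with the solvent DMSO. RNA was sequenced from 18 libraries in 6 groups of 3 (E+F+ IWR-1, E+F+ DMSO, E+F- IWR-1, E+F- DMSO, unsorted IWR-1 and unsorted DMSO), numbered Set 1 to Set 3 in each group. All groups came from this reporter line. The ES cells were kept on irradiated mouse embryonic fibroblasts, which were removed by preplating before differentiation.

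Hox genes encode homeodomain transcription factors that give cells their position along the head-to-tail axis. They lie in 4 clusters, and genes at the same place in different clusters are paralogues that share a number. Low numbers are switched on early and reach far towards the head, and high numbers follow later and further towards the tail. In the embryo this sequence begins in the primitive streak, where Wnt and fibroblast growth factor signals and the Cdx factors act on the clusters, and retinoic acid acts on the low-numbered genes. The proteins bind DNA with cofactors of the TALE class (Pbx, Meis and Pknox). Several members, among them Hoxb4 and Hoxa9, also act in blood-forming cells.

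Each library held 19725500 to 26649631 expected counts, of which 200 to 6586 fell on these Hox genes. Levels are given as TPM, each gene's part of all transcripts in a library after correction for transcript length, so they can be compared between genes. In bulk RNA, fewer cells of a type and less RNA per cell cannot be told apart. The labels were compared with marker genes. Under DMSO, 5 of 6 blood markers and 5 of 5 endothelial markers were higher in E+F+ than in E+F- cells, and of 5 cardiac markers 2 were lower (Mesp1 and Isl1) and 1 was higher (Tnnt2). Kdr itself, used in the sort, stood at 7.69 to 13.4 TPM in E+F+ DMSO and 25.2 to 75.3 TPM in E+F- DMSO libraries after 24 h of reaggregation (-1.96 ± 0.59 on the log2 scale, edgeR adjusted p = 0.0235). T (Brachyury), whose reporter was used in the sort of both populations, stood at 0.14 to 0.21 TPM in E+F+ DMSO and 218 to 494 TPM in E+F- DMSO libraries. The Set 3 libraries stood apart in all populations for part of the Hox genes, as described below, so results are also given without that Set where they change. A gene was called changed at an adjusted p under 0.05 (edgeR quasi-likelihood test, Benjamini-Hochberg adjustment over 13826 genes). Of the 37 members, 30 had enough counts to be tested. The other 7 were Hoxa4, Hoxa6, Hoxb13, Hoxc11, Hoxc12, Hoxc13 and Hoxd12. None of these exceeded 1.07 TPM in any library, and Hoxd12 had 0 counts in all 18, which allows up to 3 of the 426144704 counts summed over them.

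Promoter sequence is shown for the members called in E+F+ against E+F- cells with both treatments and whose sequence held a motif searched for. RefSeq promoter windows (GRCm38.p6) matched 21 of the 37 members with 23 entries, and the 250 bases before each start were searched on both strands for 4 motifs. These were TGATNNAT (bound by Pbx and Hox proteins together), CTTTGA (the Wnt effectors TCF and LEF), TTTATG (Cdx factors) and AGGTCA (retinoic acid receptors). The motif letters are in capitals.
Hoxb1: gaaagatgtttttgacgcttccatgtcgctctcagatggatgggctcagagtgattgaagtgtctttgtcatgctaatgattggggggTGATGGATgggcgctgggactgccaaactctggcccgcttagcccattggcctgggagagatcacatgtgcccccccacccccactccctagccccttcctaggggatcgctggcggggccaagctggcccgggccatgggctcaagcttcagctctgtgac
Hoxa2: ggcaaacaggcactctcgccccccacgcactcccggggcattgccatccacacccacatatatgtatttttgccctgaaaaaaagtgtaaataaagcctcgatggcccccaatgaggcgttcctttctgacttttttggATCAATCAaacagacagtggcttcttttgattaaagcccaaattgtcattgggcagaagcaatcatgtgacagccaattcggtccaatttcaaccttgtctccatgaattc
Hoxb4: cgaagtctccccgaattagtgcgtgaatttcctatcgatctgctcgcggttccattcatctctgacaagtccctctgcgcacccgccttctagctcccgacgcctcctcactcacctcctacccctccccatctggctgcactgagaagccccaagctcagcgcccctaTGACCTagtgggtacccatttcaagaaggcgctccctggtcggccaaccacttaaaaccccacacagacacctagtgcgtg
The Hoxb1 sequence (chr11:96365508-96365757, plus strand) and the Hoxa2 sequence (chr6:52164832-52165081, minus strand) each held a TGATNNAT match, 162 bases before the start in Hoxb1 and, read on the opposite strand, 111 bases before it in Hoxa2. The Hoxb4 sequence (chr11:96318017-96318266, plus strand) held an AGGTCA match on the opposite strand, 81 bases before the start. Hoxd1 held no match in this window. Among all members, TGATNNAT occurred in 4 of 23 entries (17.4%), against 7.68% of all 32851 promoter windows of the same length. CTTTGA occurred in 3 of 23 entries, TTTATG in 4 and AGGTCA in 5, against 13.8%, 10.8% and 14% of all windows. A match is a description of the letters and does not show binding.

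Cluster B held most of the mean Hox level in every group. Summed over the 37 members, the level was 116 ± 13.7 TPM in E+F+ IWR-1, 163 ± 4.06 TPM in E+F+ DMSO, 89.2 ± 26.0 TPM in E+F- IWR-1, 246 ± 37.0 TPM in E+F- DMSO, 57.2 ± 56.7 TPM in unsorted IWR-1 and 123 ± 56.2 TPM in unsorted DMSO libraries (SD, n = 3 each). Cluster B made up 90.3%, 90.6%, 82.6%, 82.5%, 70.4% and 81.4% of the group means in that order of groups. The Set 3 library of E+F- IWR-1 cells was lowest, with 28.5 of 70.6 TPM in cluster B, less than the other clusters held together, against 76.0 of 78.2 TPM in Set 1 and 117 of 119 TPM in Set 2. Of the 37 members, 24 reached a mean of 1 TPM in some group and 9 reached 5 TPM. At least 1 TPM in all 3 libraries was reached by 8 members in E+F+ IWR-1, 9 in E+F+ DMSO, 3 in E+F- IWR-1, 10 in E+F- DMSO, 2 in unsorted IWR-1 and 7 in unsorted DMSO cells.

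**Figure D1:**
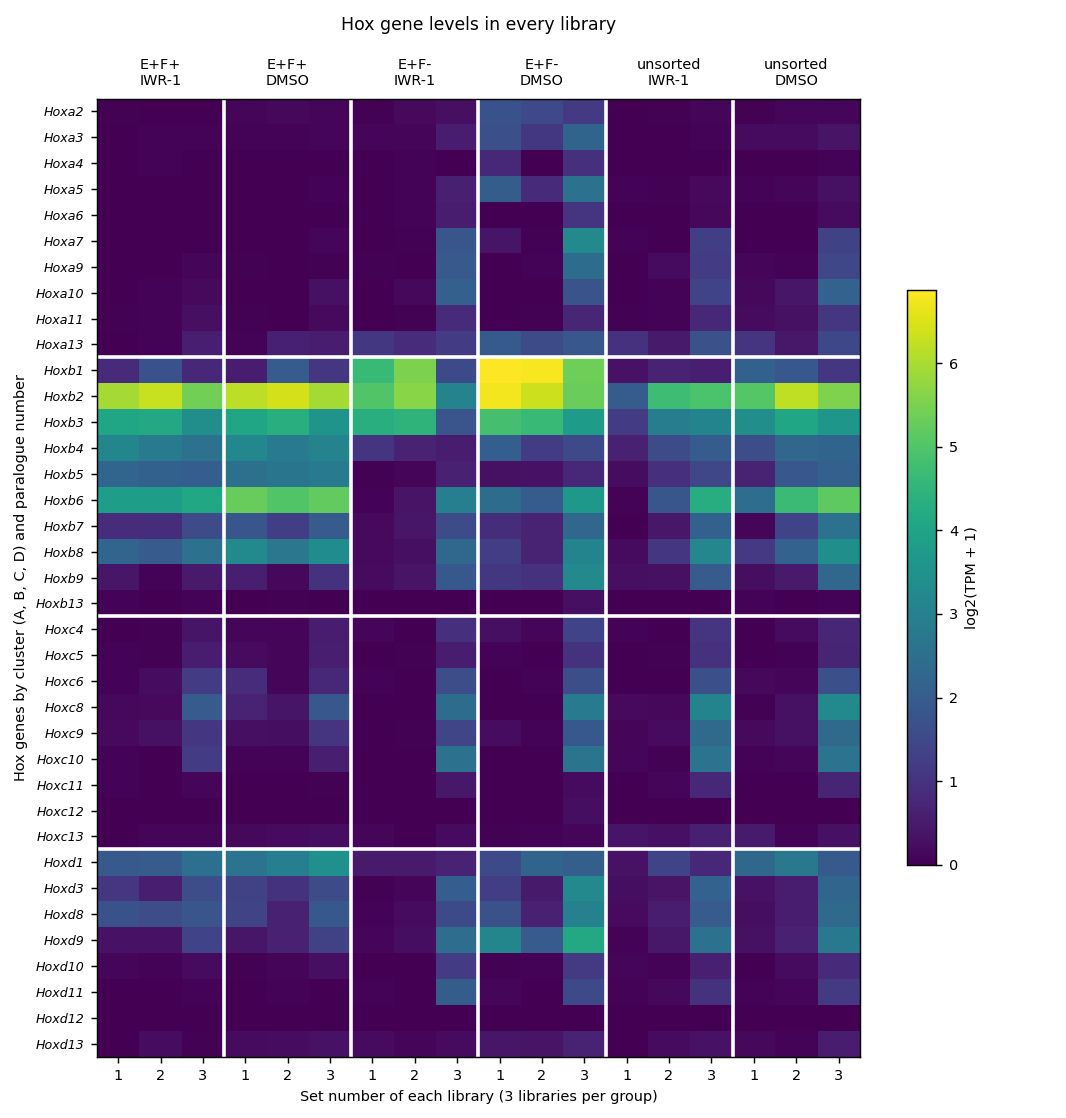
Level of each of the 37 Hox genes (rows, by cluster and paralogue number) in each of the 18 libraries (columns, by group and Set number), as log2(TPM + 1) on the colour scale. Cluster B holds the brightest rows. Most high-numbered genes of clusters A, C and D are dark outside the Set 3 libraries, and Hoxb1 is brightest in E+F- DMSO cells.

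The mean profile along cluster B differed between the populations. In E+F+ DMSO cells the leading gene was Hoxb2 (72.6 TPM on average), followed by Hoxb6 (35.0), Hoxb3 (15.0), Hoxb8 (7.83) and Hoxb4 (7.31). In E+F- DMSO cells it was Hoxb1 (88.8 TPM), followed by Hoxb2 (75.0) and Hoxb3 (21.7), with Hoxb6 at 6.29 TPM. Summed by position, paralogues 4 to 8 of all clusters held 61.8 ± 9.78 TPM in E+F+ DMSO and 27.6 ± 27.6 TPM in E+F- DMSO cells, and paralogues 1 to 3 held 98.0 ± 15.3 TPM in E+F+ DMSO and 196 ± 78.2 TPM in E+F- DMSO cells (SD, n = 3 each). For both sums the groups overlapped through the Set 3 library of E+F- DMSO cells, which held 59.0 and 108 TPM.

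E+F+ cells were compared with E+F- cells, fractions that the study reported to have blood and cardiac potential, respectively. The E+F- libraries also held markers of paraxial mesoderm and pluripotent cells, as given below. Under DMSO, 8 of the 30 members tested were called, at a background of 26.6% of all genes. Higher in E+F+ cells were 3 (Hoxb4, Hoxb5 and Hoxd1), where 12.8% of all genes were higher, and lower were 5 (Hoxb1, Hoxa2, Hoxa3, Hoxa5 and Hoxa13), where 13.8% of all genes were lower. The share of members called by this unpaired fit was thus near the background. The median log2 difference was -1.20 over the members and -0.01 over all genes tested. The share depended on the model. A fit with the Set as a replicate block called more members, with their count in the closing section, and more genes (2386 higher and 2581 lower). It added, among others, Hoxb6 (edgeR adjusted p = 0.0221), Hoxb8 (adjusted p = 0.0403) and Hoxd9 (adjusted p = 0.0026). The lowest correlation of same-numbered Sets here was 0.09766, just under the limit of 0.1 set for reading the block.

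Hoxb4 (chromosome 11, 96318267 to 96321638, plus strand, GRCm38), which expands blood stem cells when overexpressed, stood at 8.27, 6.22 and 7.45 TPM in E+F+ DMSO libraries (Sets 1, 2 and 3) and at 3.16, 1.31 and 1.88 TPM in E+F- DMSO libraries. The groups did not overlap, and the log2 difference was 1.89 ± 0.50 (SE, edgeR adjusted p = 0.0116). Hoxb5 (chromosome 11, 96303336 to 96306121, plus strand), a marker of long-term blood stem cells in mouse bone marrow, was at 4.77, 5.34 and 6.32 TPM in E+F+ DMSO and at 0.24, 0.26 and 0.72 TPM in E+F- DMSO libraries. This was the largest rise among the members, 3.90 ± 0.84 (edgeR adjusted p = 0.00349). An antisense gene, Hoxb5os, overlaps Hoxb5 and Hoxb6, and the libraries do not mark strand, so their reads cannot be told apart. Hoxd1 (chromosome 2, 74762980 to 74765142, plus strand), known from the wiring of pain-sensing neurons in the mouse, was at 5.11, 6.78 and 9.98 TPM in E+F+ DMSO and at 1.87, 3.63 and 3.25 TPM in E+F- DMSO libraries (1.44 ± 0.49, edgeR adjusted p = 0.0382). The Hoxd1 groups did not overlap, but its call was lost under 9 of 16 alternative settings.

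Their cluster neighbours Hoxb6 and Hoxb8 had high levels in E+F+ cells without being called by the unpaired fit. Hoxb6 (chromosome 11, 96292476 to 96301569, plus strand), a gene of lateral plate mesoderm, was at 37.8, 31.0 and 36.3 TPM in E+F+ DMSO and at 4.34, 2.97 and 11.6 TPM in E+F- DMSO libraries. These did not overlap, yet the log2 difference of 2.64 ± 1.22 had an adjusted p of 0.122 in edgeR. Hoxb8, which keeps myeloid progenitors from maturing when overexpressed, was at 8.86, 5.57 and 9.05 TPM in E+F+ DMSO and at 1.40, 0.59 and 7.57 TPM in E+F- DMSO libraries (1.49 ± 1.21, edgeR adjusted p = 0.390). For both genes the Set 3 library of the E+F- cells was the highest of its group. Without Set 3 both were called higher, with log2 differences of 3.29 for Hoxb6 (edgeR adjusted p = 0.0314) and 2.91 for Hoxb8 (edgeR adjusted p = 0.0225).

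Of the 5 members with lower levels in E+F+ cells, 1 lies in cluster B and 4 in cluster A. Hoxb1 (chromosome 11, 96365752 to 96368256, plus strand), which acts in the hindbrain and is on early in the primitive streak, was at 0.44, 2.95 and 1.11 TPM in E+F+ DMSO and at 116, 110 and 40.1 TPM in E+F- DMSO libraries. Its log2 difference was -5.78 ± 0.99 (edgeR adjusted p = 0.000752). Hoxa2 (chromosome 6, 52162417 to 52164831, minus strand), which patterns the hindbrain and pharyngeal arches, was at 0.07, 0.11 and 0.08 TPM in E+F+ DMSO and at 2.34, 1.87 and 1.25 TPM in E+F- DMSO libraries (-4.16 ± 0.65, edgeR adjusted p = 0.00042). Hoxa2 was near the limit of detection in E+F+ cells, and for both genes every E+F- DMSO library lay above every E+F+ one.

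Hoxa3 (chromosome 6, 52169062 to 52213336, minus strand), needed for thymus and parathyroid, was at 0.05, 0.04 and 0.07 TPM in E+F+ DMSO and at 2.21, 1.15 and 3.66 TPM in E+F- DMSO libraries (-5.18 ± 0.83, edgeR adjusted p = 0.000479). Its annotated span contains Hoxa4, Hoxa5 and Hoxa6 on the same strand, so reads may have been divided among them. Hoxa5 (chromosome 6, 52201754 to 52204587, minus strand), which acts in lung and neck vertebrae, was at 0, 0 and 0.04 TPM in E+F+ DMSO, 1 count in all, and at 3.08, 0.80 and 5 TPM in E+F- DMSO libraries, 186 counts in all. No fold is given at 1 count, and the test called the difference (edgeR adjusted p = 0.00164). Hoxa13 (chromosome 6, 52257694 to 52260880, minus strand), a gene of limb tips and hindgut, was at 0.05, 0.53 and 0.43 TPM in E+F+ DMSO and at 2.88, 2.01 and 2.65 TPM in E+F- DMSO libraries (-2.68 ± 0.83, edgeR adjusted p = 0.0267). Its call was lost under 5 of 16 alternative settings.

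Hoxb2 and Hoxb3, the other abundant genes of the low-numbered end, overlapped between the populations. Hoxb2 (chromosome 11, 96350525 to 96354012, plus strand), which acts on facial motor neurons, was at 71.9, 85.0 and 60.7 TPM in E+F+ DMSO and at 106, 80.8 and 38.2 TPM in E+F- DMSO libraries (0.04 ± 0.68, edgeR adjusted p = 0.975). Hoxb3, also a hindbrain gene, was at 15.4, 18.8 and 10.8 TPM in E+F+ DMSO and at 27.6, 24.5 and 12.98 TPM in E+F- DMSO libraries (-0.44 ± 0.64, edgeR adjusted p = 0.659). The standard errors do not show that the levels were equal. An antisense gene, Hoxb3os, overlaps both. Hoxd9, which acts in forelimb, was at 0.34, 0.55 and 1.54 TPM in E+F+ DMSO and at 7.89, 2.96 and 16.8 TPM in E+F- DMSO libraries. These groups did not overlap, but the difference of -3.32 ± 1.55 was not called by the unpaired fit (edgeR adjusted p = 0.125).

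The other 17 members tested were called in no comparison by the unpaired fit, and ranged from 0 to 8.63 TPM over the 18 libraries.

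The number of members called in E+F+ against E+F- cells with DMSO depended on the Sets. Without Set 2 it was 4 (Hoxa2, Hoxa3, Hoxa5 and Hoxb1, lower in E+F+ cells, which were called under all 16 alternatives), and without Set 3 it was 9, at 10.3% and 20.7% of all genes. The 9 included Hoxb6, Hoxb8 and Hoxd9 and left out Hoxb4 and Hoxd1. Of the 4, Hoxa2, Hoxa3 and Hoxa5 had enough counts to be tested only through the E+F- DMSO libraries, where they were high. The populations also differed in markers of other cells. The summed level of 5 paraxial mesoderm markers (Tbx6, Msgn1, Meox1, Tcf15 and Dll1) was 2.62 to 3.89 TPM in E+F+ DMSO and 116 to 389 TPM in E+F- DMSO libraries, and 3 of 5 were lower in E+F+ cells. That of 5 pluripotency markers was 10.6 to 22.7 TPM in E+F+ DMSO and 82.0 to 376 TPM in E+F- DMSO libraries, and 5 of 5 were lower. That of 5 markers of allantois and extra-embryonic mesoderm was 936 to 1150 TPM in E+F+ DMSO and 271 to 450 TPM in E+F- DMSO libraries, and 1 of 5 was higher (Hand1). Hand1 carried most of this difference, with means of 869 TPM in E+F+ DMSO and 207 TPM in E+F- DMSO. In the same order, Bmp4 averaged 144 and 127 TPM, Pitx1 13.9 and 2.71 TPM, Vcam1 0.26 and 0.02 TPM and Tbx4 0.28 and 1.24 TPM. The part of these cells in the Hox differences was not tested.

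**Figure D2:**
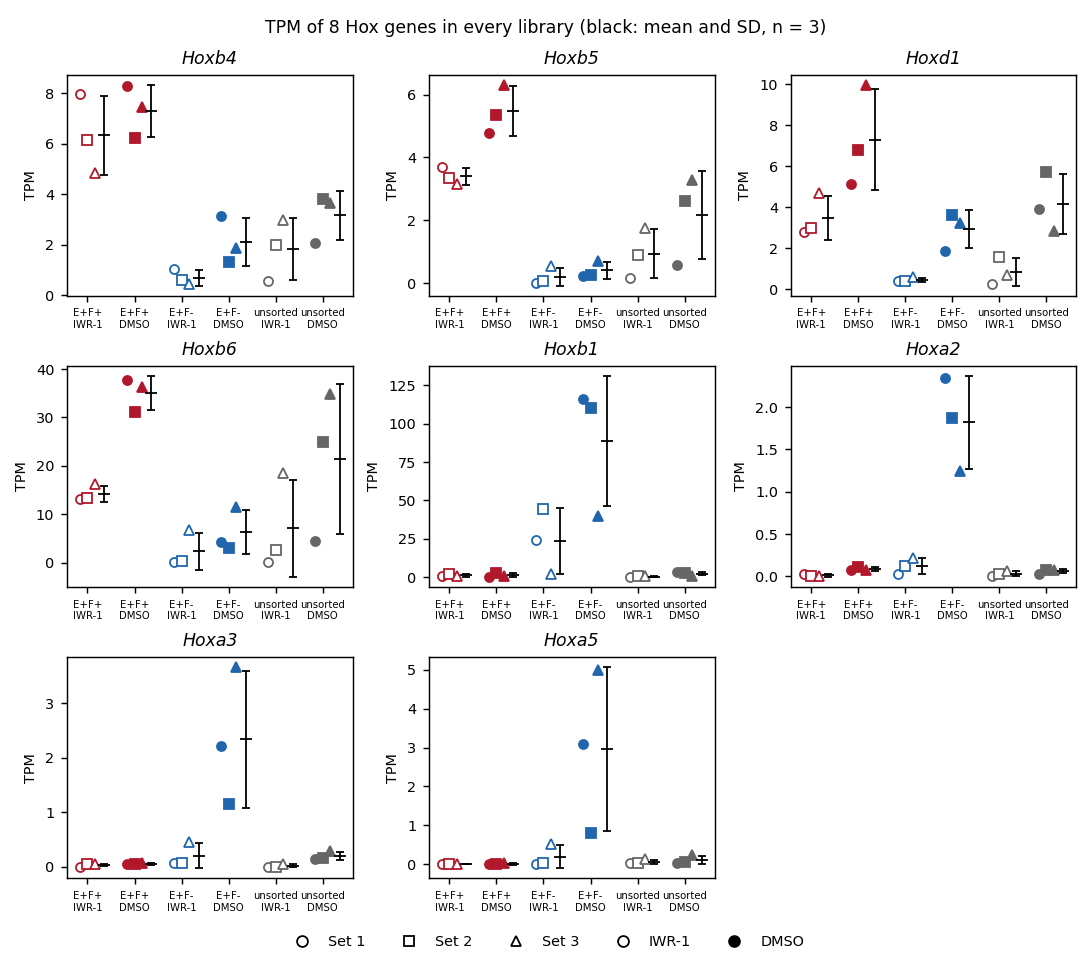
Level (TPM, linear axes) of 8 Hox genes in every library, by group on the horizontal axis; open symbols are IWR-1 and filled symbols DMSO, shapes give the Set, and black marks give mean and SD (n = 3). Hoxb4, Hoxb5, Hoxb6 and Hoxd1 have their highest mean in E+F+ DMSO cells, and Hoxa2, Hoxa3, Hoxa5 and Hoxb1 in E+F- DMSO cells.

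Under IWR-1, 5 of 30 members were called between E+F+ and E+F- cells, at a background of 22.5% of all genes. Higher in E+F+ cells were 3 (Hoxb4, Hoxb5 and Hoxd1), where 10.4% of all genes were higher, and lower were 2 (Hoxb1 and Hoxa2), where 12.1% were lower. The median log2 difference was -0.90 over the members and -0.01 over all genes. Hoxb4 was at 7.98, 6.17 and 4.86 TPM in E+F+ IWR-1 and at 1.04, 0.59 and 0.45 TPM in E+F- IWR-1 libraries (3.18 ± 0.54, edgeR adjusted p = 0.000884). Hoxb5 was at 3.69, 3.36 and 3.15 TPM in E+F+ IWR-1 and at 0.02, 0.07 and 0.54 TPM in E+F- IWR-1 libraries (4.10 ± 0.88, edgeR adjusted p = 0.00411). Both kept their groups apart, as they did under DMSO.

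Hoxd1 was at 2.78, 2.96 and 4.70 TPM in E+F+ IWR-1 and at 0.40, 0.41 and 0.58 TPM in E+F- IWR-1 libraries (2.92 ± 0.55, edgeR adjusted p = 0.00173). Hoxb1 was at 0.77, 2.29 and 0.71 TPM in E+F+ IWR-1 and at 24.3, 44.7 and 1.93 TPM in E+F- IWR-1 libraries, and the groups overlapped through Set 3 (-4.26 ± 0.95, edgeR adjusted p = 0.00506). Hoxa2 had 1 count over the E+F+ IWR-1 libraries (0.03, 0 and 0 TPM) and 11 over the E+F- IWR-1 libraries (0.03, 0.12 and 0.22 TPM), so its call (edgeR adjusted p = 0.0411) rests on few reads and was lost under 9 of 15 alternatives.

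In this comparison same-numbered Sets varied together, and a paired fit with the Set as a replicate block called 15 members, 6 higher and 9 lower, at 31.0% of all genes. It added Hoxb6 (3.54 ± 1.04, edgeR adjusted p = 0.0184), Hoxb8 (2.55, adjusted p = 0.0375) and Hoxd8 (2.76, adjusted p = 0.0216) among the higher genes, and Hoxa3, Hoxa5, Hoxa7, Hoxa9, Hoxa10, Hoxa13 and Hoxd11 among the lower. In E+F- IWR-1 cells the Set 3 library held 58 of 59 counts of Hoxa7, 64 of 66 of Hoxa10, 65 of 66 of Hoxd11 and 102 counts of Hoxa9, against 1 of Hoxa9 in Set 1 and 0 in Set 2. Nearly all E+F- reads behind these calls thus came from that library, and the groups overlapped for all of these genes. Without Set 2 the unpaired count was 2 and without Set 3 it was 9. Hoxb6 stood at 13.1, 13.3 and 16.2 TPM in E+F+ IWR-1 and at 0.05, 0.28 and 6.77 TPM in E+F- IWR-1 libraries. Its groups did not overlap, and its unpaired difference of 2.71 ± 1.26 was not called (edgeR adjusted p = 0.140).

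**Figure D3:**
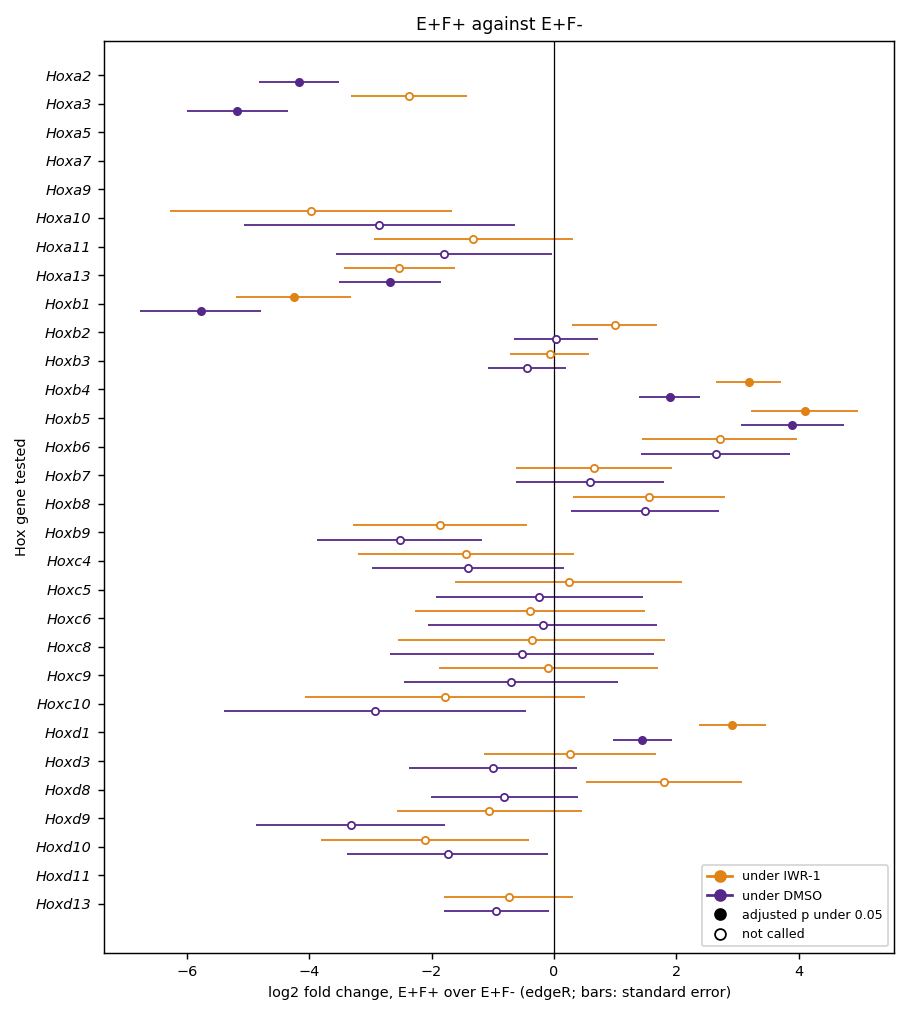
Log2 fold change of E+F+ over E+F- cells (horizontal axis, edgeR, bars are standard errors) for the Hox genes tested, under IWR-1 and under DMSO; filled points had an adjusted p under 0.05, and values resting on 3 counts or fewer in a group are left out. Hoxb4, Hoxb5 and Hoxd1 lie to the right and Hoxb1 to the left under both treatments.

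IWR-1 was compared with DMSO within each population to ask which genes depend on canonical Wnt signalling. In E+F- cells 3 of 30 members were called (0.521% of all genes), all of them lower with IWR-1, where 0.391% of all genes were lower. They were Hoxa2, Hoxa3 and Hoxd1. Hoxa2 and Hoxa3, and Hoxa5 given below, had enough counts to be tested only through the E+F- DMSO libraries, where they were high. A fall against that group was thus partly built into the filter, and the share called cannot be weighed against that of all genes. The median log2 difference was -1.09 over the members and 0.01 over all genes tested.

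Hoxa2 was at 0.03, 0.12 and 0.22 TPM in E+F- IWR-1 and at 2.34, 1.87 and 1.25 TPM in E+F- DMSO libraries (-3.83 ± 0.64, edgeR adjusted p = 0.0118). Hoxa3 was at 0.07, 0.06 and 0.46 TPM in E+F- IWR-1 and at 2.21, 1.15 and 3.66 TPM in E+F- DMSO libraries (-3.51 ± 0.73, edgeR adjusted p = 0.0470). Hoxd1 was at 0.40, 0.41 and 0.58 TPM in E+F- IWR-1 and at 1.87, 3.63 and 3.25 TPM in E+F- DMSO libraries (-2.56 ± 0.54, edgeR adjusted p = 0.0489). None of these groups overlapped. Without Set 1 or without Set 2 none of the 3 was called. Leaving out single libraries also moved the count: 0 members were called without the Set 1 library of either group or without IWR-1 Set 2, and Hoxa2 alone was without DMSO Set 2 or DMSO Set 3.

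Hoxa5, at 0, 0.04 and 0.53 TPM in E+F- IWR-1 and 3.08, 0.80 and 5 TPM in E+F- DMSO libraries, did not overlap either but was not called (-3.96 ± 0.98, edgeR adjusted p = 0.126). In a paired fit with the Set as a replicate block it was called (-4.21, adjusted p = 0.0067), as was Hoxd9 (-3.74 ± 0.78, adjusted p = 0.0294), which made 5 members at 1.49% of all genes. Hoxd9 was at 0.06, 0.19 and 4.52 TPM in E+F- IWR-1 and at 7.89, 2.96 and 16.8 TPM in E+F- DMSO libraries, lower with IWR-1 in each Set.

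The abundant genes of cluster B had lower means with IWR-1 in E+F- cells without being called. Hoxb1 was at 24.3, 44.7 and 1.93 TPM in E+F- IWR-1 and at 116, 110 and 40.1 TPM in E+F- DMSO libraries, lower with IWR-1 in each Set (-1.79 ± 0.81, edgeR adjusted p = 0.597). Hoxb2 was at 31.3, 48.9 and 7.47 TPM in E+F- IWR-1 and at 106, 80.8 and 38.2 TPM in E+F- DMSO libraries (-1.25 ± 0.70, edgeR adjusted p = 0.734). For both genes the ranges of the groups overlapped. The summed level of the paraxial mesoderm markers was 33.8 to 54.6 TPM in E+F- IWR-1 and 116 to 389 TPM in E+F- DMSO libraries. Msgn1 carried most of it and was the 1 of 5 called (8.96 TPM on average with IWR-1 and 177 TPM with DMSO, edgeR adjusted p = 0.0470). Tbx6 averaged 14.3 TPM with IWR-1 and 42.1 TPM with DMSO, Dll1 17.6 and 18.4 TPM, Tcf15 4.88 and 2.18 TPM and Meox1 0.40 and 0.07 TPM, and the median log2 difference of the list was 0.06. The allantois and extra-embryonic mesoderm markers had sums of 64.8 to 66.8 TPM in E+F- IWR-1 and 271 to 450 TPM in E+F- DMSO libraries, and 1 of 5 was lower (Bmp4, -2.88 ± 0.25, edgeR adjusted p = 9.39e-05). Hand1 and Bmp4 carried this difference, at 46.6 and 16.2 TPM on average with IWR-1 and 207 and 127 TPM with DMSO. Pitx1 averaged 2.54 TPM with IWR-1 and 2.71 TPM with DMSO, Tbx4 0.67 and 1.24 TPM and Vcam1 0.02 and 0.02 TPM. The pluripotency markers had sums of 294 to 955 TPM in E+F- IWR-1 and 82.0 to 376 TPM in E+F- DMSO libraries, with 0 of 5 called. The part of these cells in the Hox differences was not tested.

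In E+F+ cells no member was called, and no gene at all was (0% of all genes, with 695 genes and 2 members at an unadjusted p under 0.05). DESeq2 called 0 members and 29 genes. Same-numbered Sets varied together here also, and the paired fit with a replicate block called no member, with 1 gene higher and 8 lower. Non-overlapping levels were lower with IWR-1 for 5 of 30 members (Hoxa2, Hoxb5, Hoxb6, Hoxb8 and Hoxd1), against 5.91% of all genes. Hoxb6 was at 13.1, 13.3 and 16.2 TPM in E+F+ IWR-1 and at 37.8, 31.0 and 36.3 TPM in E+F+ DMSO libraries, which left the groups wide apart (-1.33 ± 1.15, edgeR adjusted p = 0.997). A fit to these 6 libraries alone called it (adjusted p = 0.0207). Hoxb8 was at 3.77, 2.94 and 5.05 TPM in E+F+ IWR-1 and at 8.86, 5.57 and 9.05 TPM in E+F+ DMSO libraries (-1.02 ± 1.19, edgeR adjusted p = 0.997).

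Hoxd1 was at 2.78, 2.96 and 4.70 TPM in E+F+ IWR-1 and at 5.11, 6.78 and 9.98 TPM in E+F+ DMSO libraries (-1.09 ± 0.48, edgeR adjusted p = 0.986). Hoxb5 was at 3.69, 3.36 and 3.15 TPM in E+F+ IWR-1 and at 4.77, 5.34 and 6.32 TPM in E+F+ DMSO libraries (-0.71 ± 0.72, edgeR adjusted p = 0.997). Hoxb4, at 7.98, 6.17 and 4.86 TPM in E+F+ IWR-1 and 8.27, 6.22 and 7.45 TPM in E+F+ DMSO libraries, overlapped between the groups. So did Hoxb2, at 60.4, 77.5 and 41.5 TPM in E+F+ IWR-1 and 71.9, 85.0 and 60.7 TPM in E+F+ DMSO libraries.

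In unsorted cells no member was called either (0.0940% of all genes, with 1201 genes and 3 members at an unadjusted p under 0.05). Hoxd1 was at 0.26, 1.59 and 0.70 TPM in unsorted IWR-1 and at 3.89, 5.71 and 2.83 TPM in unsorted DMSO libraries (-2.26 ± 0.52, edgeR adjusted p = 0.109). The groups did not overlap for Hoxd1 or for Hoxa3, Hoxb1, Hoxb2 and Hoxb3, which made 5 of 30 members lower, against 6.80% of all genes. In E+F- cells the corresponding number was 7 of 30, against 11.7% of all genes. Same-numbered Sets of the unsorted cells varied together, and the paired fit with a replicate block called Hoxd1 (-2.37 ± 0.42, edgeR adjusted p = 0.0204), at 0.868% of all genes. DESeq2 and a fit without the Set 2 library of unsorted IWR-1 cells also called it.

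Within each Set, most expressed members were lower with IWR-1. Among members with a DMSO mean of at least 1 TPM, 7 of 12 in E+F+ cells were lower in 3 of 3 Sets (21.6% of all genes at that level), 16 of 20 in E+F- cells (36.1%) and 13 of 18 in unsorted cells (25.4%). No member was higher in 3 of 3 Sets in any population. The exceptions in E+F+ cells were Hoxb1, Hoxb3, Hoxc8, Hoxd3 and Hoxd8, those in E+F- cells Hoxa7, Hoxa9, Hoxc8 and Hoxc10, and those in unsorted cells Hoxa13, Hoxb9, Hoxc8, Hoxc10 and Hoxd8. The members are neighbours in 4 clusters and are not independent of each other.

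**Figure D4:**
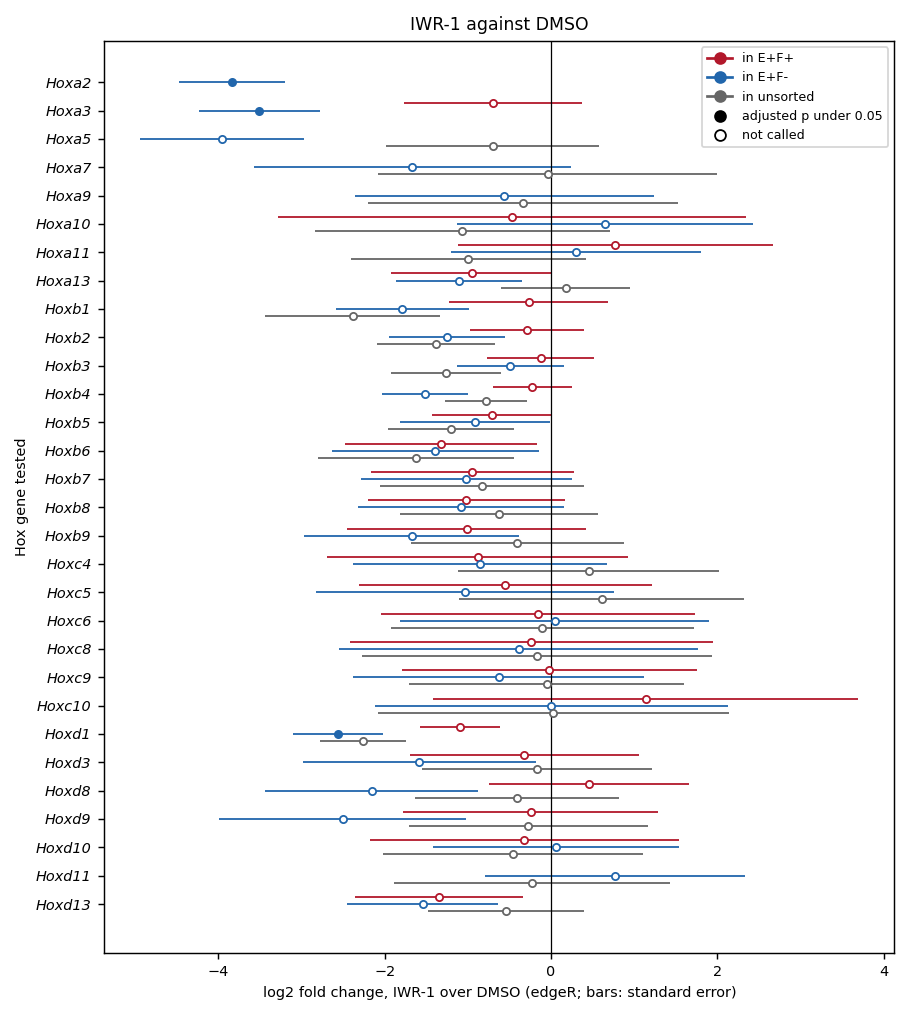
Log2 fold change of IWR-1 over DMSO (horizontal axis, edgeR, bars are standard errors) for the Hox genes tested in E+F+, E+F- and unsorted cells; filled points had an adjusted p under 0.05, and values resting on 3 counts or fewer in a group are left out. The 3 filled points are Hoxa2, Hoxa3 and Hoxd1 in E+F- cells, and Hoxd1 lies left of 0 in all populations.

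The IWR-1 effects in E+F+ and E+F- cells were also compared directly. No member differed (0.0289% of all genes, with 539 genes and 0 members at an unadjusted p under 0.05, and 0 members and 28 genes called by DESeq2). Hoxd1 had the lowest unadjusted p among the members, with a log2 effect of IWR-1 that was smaller in size in E+F+ than in E+F- cells by 1.47 ± 0.71 (edgeR adjusted p = 0.9999). By edgeR, an effect called in E+F- cells and not in E+F+ cells is therefore not shown to differ between them. Limma on log2(TPM + 1) called Hoxa2 in this test, and no other member. Hoxa2 averaged 0.01 TPM in E+F+ IWR-1 and 0.087 TPM in E+F+ DMSO libraries, so a fall there could hardly show on this scale. That call therefore does not show that the effects differ.

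The sorted cells were also set against the unsorted cells. Between E+F- DMSO and unsorted DMSO libraries, 4 of 30 members were called (9.48% of all genes) and all were higher in E+F- cells, where 4.56% of all genes were higher. Hoxb1 was at 116, 110 and 40.1 TPM in E+F- DMSO and at 3.42, 2.67 and 1.14 TPM in unsorted DMSO libraries (5.20 ± 0.96, edgeR adjusted p = 0.00504). Hoxa2 differed by 4.72 ± 0.69 (edgeR adjusted p = 0.00166), Hoxa3 by 3.56 ± 0.73 (adjusted p = 0.00861) and Hoxa5 by 4.58 ± 1.03 (adjusted p = 0.0164). In unsorted DMSO libraries these 3 genes lay between 0.03 and 0.28 TPM. They had enough counts to be tested only through the E+F- DMSO libraries, so a higher level there was partly built into the filter. Without Set 2 none of the 4 was called, when 1 gene in all passed, and without Set 1 the count was 2.

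Under IWR-1, Hoxb1 was the member called between E+F- and unsorted cells (2.66% of all genes, 1.19% higher). It was at 24.3, 44.7 and 1.93 TPM in E+F- IWR-1 and at 0.27, 0.59 and 0.50 TPM in unsorted IWR-1 libraries (5.80 ± 1.06, edgeR adjusted p = 0.0158). The paired fit with a replicate block added Hoxa3 (adjusted p = 0.0237), at 12.4% of all genes. The Hoxb1 call was lost under 7 of 16 alternatives, with leaving out Set 2 giving the highest adjusted p (0.575). Other counts under leaving out libraries were 0 to 3.

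Between E+F+ and unsorted cells under DMSO no member was called (10.6% of all genes, with 3722 genes and 1 member at an unadjusted p under 0.05; 0 members and 2056 genes by DESeq2). A paired fit with a replicate block called 7 members, with Hoxb5 higher (1.65, edgeR adjusted p = 0.0471) and Hoxa7, Hoxa9, Hoxa10, Hoxa11, Hoxc10 and Hoxd11 lower in E+F+ cells, at 20.3% of all genes. In unsorted DMSO cells the Set 3 library held all 34.9 counts of Hoxa7, 65 of 70 of Hoxa9, 68 of 80 of Hoxa10, 35 of 50 of Hoxa11, 113 of 116 of Hoxc10 and 26.7 of 29.7 of Hoxd11. Under IWR-1, 2 members were called (10.0% of all genes) and both were higher in E+F+ cells, where 3.64% of all genes were higher. Hoxd1 was at 2.78, 2.96 and 4.70 TPM in E+F+ IWR-1 and at 0.26, 1.59 and 0.70 TPM in unsorted IWR-1 libraries (2.06 ± 0.51, edgeR adjusted p = 0.0208). Hoxb4 was at 7.98, 6.17 and 4.86 TPM in E+F+ IWR-1 and at 0.55, 2.01 and 2.98 TPM in unsorted IWR-1 libraries (1.85 ± 0.50, edgeR adjusted p = 0.0297). The paired fit with a replicate block called 8, adding Hoxb5 (2.30, adjusted p = 0.0147) as higher and Hoxa7, Hoxa9, Hoxa10, Hoxa13 and Hoxd11 as lower, at 19.5% of all genes. Here too Set 3 held most counts of the unsorted IWR-1 cells for Hoxa7 (35.0, against 1 in Set 1 and 0 in Set 2), Hoxa9 (52 of 59), Hoxa10 (38 of 40) and Hoxd11 (23 of 27). Without Set 1 or without Set 2 no member was called.

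Much of the spread among the Hox genes followed the Set number. The share of a gene's counts that lay in the 6 Set 3 libraries had a median of 22.7% in paralogues 1 to 3 (7 genes), 63.8% in paralogues 4 to 8 (14 genes) and 83.8% in paralogues 9 to 13 (14 genes). It was 32.2% over all 15969 genes with at least 10 counts, and Set 3 held 31.4% of all counts. More than 80% of the counts came from Set 3 for 14 of 35 members and for 50 of the 15969 genes (0.313%). In 16 of 35 members the Set 3 library was the highest in 6 of 6 groups, as it was for 4.96% of all genes. Because Set 3 is a single library of each group, this is a description without a test.

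The sum over paralogues 9 to 13 was 0.94, 1.02 and 5.77 TPM in E+F+ IWR-1 libraries (Sets 1, 2 and 3) and 1.44, 1.89 and 5.65 TPM in E+F+ DMSO libraries. In E+F- IWR-1 libraries it was 1.65, 1.52 and 27.2 TPM, and in E+F- DMSO libraries 12.6, 6.41 and 47.7 TPM. In unsorted IWR-1 libraries it was 1.83, 2.03 and 26.2 TPM, and in unsorted DMSO libraries 2.58, 2.61 and 30.7 TPM. Set 3 was highest in every group, by the fewest TPM in E+F+ cells.

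Single genes showed the same separation. Hoxc10, a gene of the lumbar region, had 98.2% of its counts in Set 3 and lay between 0.48 and 5.27 TPM there, against 0 to 0.08 TPM in the other 12 libraries. Hoxc8, a thoracic gene, lay between 2.67 and 8.63 TPM in Set 3 and between 0 and 0.57 TPM in the other libraries. Hoxa9, which sustains blood stem cells and leukaemia, lay between 0.02 and 4.39 TPM in Set 3 and between 0 and 0.15 TPM elsewhere, and its Set 3 levels in E+F+ cells were 0.07 TPM with IWR-1 and 0.02 TPM with DMSO. The low-numbered genes of cluster B ran the other way. Hoxb1 had 10.4% of its counts in Set 3 and in no group was its Set 3 library the highest, and Hoxb2 and Hoxb3 had 22.7% and 20.3%. The last genes of clusters A, C and D had shares of 43.1% (Hoxa13), 44.8% (Hoxc13) and 48.1% (Hoxd13), below the other high-numbered genes. Hoxb13, the last of cluster B, had 70.0% of only 10 counts. The cluster D genes Hoxd3 and Hoxd8 lay between 1.98 and 8.46 TPM and between 1.94 and 7.13 TPM in Set 3, against 0.02 to 1.55 TPM and 0.04 to 2.35 TPM elsewhere.

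Other genes moved with Set 3 as well. Cdx2, a homeodomain factor that activates central and posterior Hox genes, was at 1.07, 2.05 and 16.3 TPM in E+F+ IWR-1 libraries (Sets 1, 2 and 3) and at 4.01, 3.13 and 11.4 TPM in E+F+ DMSO libraries. It was at 2.53, 5.68 and 36.6 TPM in E+F- IWR-1 and at 62.9, 46.1 and 94.4 TPM in E+F- DMSO libraries. In unsorted cells it was at 1.23, 2.51 and 42.6 TPM with IWR-1 and at 12.4, 7.59 and 49.1 TPM with DMSO. Set 3 was highest in each group. The sum of 6 blood markers was 3323 to 6844 TPM in Set 3 and 673 to 1342 TPM in Sets 1 and 2 of E+F+ cells. It was 104 to 359 against 8.16 to 25.8 TPM in E+F- cells and 1540 to 1649 against 56.4 to 114 TPM in unsorted cells. Hbb-bh1 made up most of the sum in Set 3, with 6445 TPM in E+F+ IWR-1 and 2981 TPM in E+F+ DMSO. Gata1, Klf1, Gfi1b, Hbb-bh1 and Itga2b were highest in Set 3 of every group. Tal1 was not in E+F- cells, at 9.03, 11.99 and 6.47 TPM with IWR-1 and 4.46, 16.09 and 6.68 TPM with DMSO.

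The sum of 6 markers of fibroblasts, the feeder cells, was 14.3 to 19.9 TPM in Set 3 and 7.21 to 12.6 TPM in Sets 1 and 2 of E+F+ cells, 6.44 to 10.4 against 3.24 to 5.05 TPM in E+F- cells and 17.3 to 24.8 against 4.48 to 5.64 TPM in unsorted cells. Of these markers, Dcn and Lum stayed at or under 0.22 TPM in all 18 libraries, while Postn reached 8.90, Col3a1 4.48 and Col1a2 12.0 TPM. Thy1 did not follow Set 3 in all groups: it was at 0.70, 0.59 and 0.47 TPM in E+F+ IWR-1, at 0.90, 1.23 and 0.69 TPM in E+F+ DMSO and at 3.02, 2.70 and 1.85 TPM in E+F- IWR-1 libraries (Sets 1, 2 and 3). In E+F+ DMSO libraries Postn (5.07, 2.30 and 3.96 TPM) and Col3a1 (0.68, 0.14 and 0.52 TPM) were also highest in Set 1. The part of these genes and cells in the Set 3 levels was not tested. What made Set 3 different is not given in the sources used here.

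**Figure D5:**
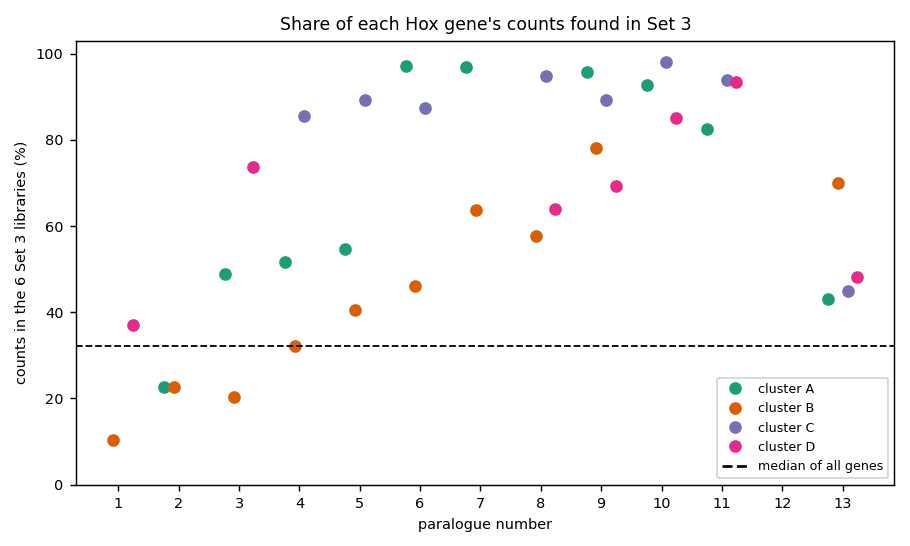
Share of each Hox gene's counts found in the 6 Set 3 libraries (vertical axis, %), by paralogue number (horizontal axis) and cluster (colour), for the 35 members with at least 10 counts; the dashed line is the median of all genes (32.2%). All genes of paralogues 5 to 11 lie above the line, and Hoxb1 is lowest at 10.4%.

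Regulators that act on the Hox clusters were counted from lists chosen beside the members. Of 11 axial regulators, 9 were lower in E+F+ than in E+F- cells under DMSO, where 13.8% of all genes were, and 0 higher. They were Gbx2 (-8.99, edgeR adjusted p = 1.11e-05), T (-10.68, adjusted p = 2.8e-05), Cdx1, Cdx4, Wnt3a, Fgf8, Cyp26a1, Aldh1a2 and Wnt5a. Under IWR-1, 7 of 11 were lower, against 12.1% of all genes. IWR-1 lowered 3 of 11 in E+F- cells, against 0.391% of all genes: Gbx2, which positions the hindbrain border, by -4.10 ± 0.58 (edgeR adjusted p = 0.00285), Cdx1, a direct Wnt target, by -4.52 ± 0.71 (adjusted p = 0.0118), and the ligand Wnt3a by -4.70 ± 0.94 (adjusted p = 0.0470). Gbx2 was at 1.17, 2.28 and 0.81 TPM in E+F- IWR-1 and at 35.3, 24.7 and 19.0 TPM in E+F- DMSO libraries, and in E+F+ cells it did not exceed 0.07 TPM. Cdx2, Cdx4 and Wnt5a were not called in E+F- cells, but their levels were lower with IWR-1 without overlap, as for 11.7% of all genes. Cdx2 was at 2.53, 5.68 and 36.6 TPM with IWR-1 and at 62.9, 46.1 and 94.4 TPM with DMSO. Fgf8 and Cyp26a1 had higher means with IWR-1. None of the 11 was called for IWR-1 in E+F+ or in unsorted cells, where 0% and 0.0940% of all genes were. In E+F+ DMSO cells Cdx1, Cdx4, Wnt3a, Gbx2, Aldh1a2, T and Fgf8 averaged between 0 and 0.28 TPM. A fall of these genes with IWR-1 could hardly be seen there, so the result does not show that they are unaffected.

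Cofactors and chromatin regulators were counted in the same way, at a background of 26.6% of all genes called. Of 9 TALE cofactors, 2 were higher in E+F+ than in E+F- cells under DMSO (Pbx2 by 0.42 ± 0.10, edgeR adjusted p = 0.00684, and Pknox2 by 1.09 ± 0.33, adjusted p = 0.0229) and 1 was lower (Meis3, -0.68 ± 0.19, adjusted p = 0.0162). Of 15 Polycomb and Trithorax genes, which hold Hox clusters silent or active, 1 was higher (Men1, 0.46 ± 0.10, adjusted p = 0.00273) and 2 were lower (Pcgf2, -0.40 ± 0.13, adjusted p = 0.0298, and Cbx2, -0.68 ± 0.23, adjusted p = 0.0387). None of the 9 or the 15 was called for IWR-1 in any population. Of all genes, 0% were called for IWR-1 in E+F+, 0.521% in E+F- and 0.0940% in unsorted cells.

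Genes that flank the clusters were examined for comparison. Of 12 tested, 2 were higher and 2 lower in E+F+ than in E+F- cells under DMSO, where 12.8% and 13.8% of all genes were. Evx1, a homeobox gene beyond Hoxa13 that is active in the primitive streak, was at 0.54, 1.33 and 0.85 TPM in E+F+ DMSO and at 144, 126 and 135 TPM in E+F- DMSO libraries (-7.08 ± 0.76, edgeR adjusted p = 3.29e-05). Skap2, beyond the other end of cluster A, was lower by -0.88 ± 0.15 (adjusted p = 0.000811). Skap1, near Hoxb1, was higher by 3.37 ± 0.49 (adjusted p = 0.000237) and Smug1, near Hoxc4, by 0.36 ± 0.13 (adjusted p = 0.0476).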

How the data were processed

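RNA was sequenced from 18 libraries (6 groups of 3) of mouse ES cell cultures that the study treats as independent biological samples. The authors aligned reads to RefSeq transcripts (mm10) with Bowtie 0.12.9 through RSEM 1.2.3, after base calling with CASAVA 1.8.2, and deposited RSEM expected counts and TPM per gene. Versions are from the submitters' processing notes. The libraries do not mark strand, and 12 members overlap a gene on the opposite strand and 11, Hoxa2, Hoxa3 and Hoxa5 among them, a coding gene on their own strand (GENCODE M21, GRCm38), so values of such genes are uncertain. Counts were given for 20321 genes and TPM for 20308. The other 13, mitochondrial transcripts, took 1.315% to 3.322% of a library's counts.

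Expected counts were rounded and fitted with edgeR 4.0.16 (R 4.3.3, TMM, quasi-likelihood test) over all 6 groups, after a filter on low counts by group that left 13826 genes. A member high in 1 group passed through that group, as Hoxa2, Hoxa3 and Hoxa5 did through E+F- DMSO cells. The p-values measure the spread between these libraries. Each edgeR standard error was taken as the size of the log2 difference over the square root of the test's F statistic, and is approximate. Alternatives were DESeq2 1.42.0, limma 3.58.1 on log2(TPM + 1) and log2(TPM + 0.1), other size factors, no filter, the groups compared alone, the Set as a replicate block, and leaving out Sets or libraries.

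Sets share a number in all groups. The correlation of same-numbered libraries' deviations from their group means was over 0.1 for 3 of 3 pairs in 7 comparisons (0.1002 to 0.7523), which were then also read with the block. It was not so between E+F+ and E+F- cells (lowest 0.09766) or between E+F- and unsorted cells (lowest -0.008222) under DMSO. No libraries within a group agreed within sampling noise.

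Values per library are given for members called in some comparison and for members with a group mean of at least 5 TPM. Hoxa9, Hoxc8, Hoxc10, Hoxd3, Hoxd8 and the last genes of each cluster were named for their Set 3 levels after these were seen. Of the 38 genes whose symbol matches, 37 were described and 1 is not reported here, though it stayed in all fits. Members and lists were chosen with earlier results of these data known.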

Additional observations from a re-analysis of the deposited data

How the results depend on the processing

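With the Set as a replicate block, counts of members called were 17 for E+F+ against E+F- cells with DMSO, 15 with IWR-1, 5 for IWR-1 in E+F- cells, 1 for IWR-1 in unsorted cells, 7 between E+F+ and unsorted cells and 7 between E+F- and unsorted cells under DMSO, and 8 and 2 in the same pairs under IWR-1. All 23 calls of the unpaired fits held with the block. The block also raised the calls over all 13826 genes. For E+F+ against E+F- cells with DMSO it called 2386 higher and 2581 lower, against 1770 and 1911 without it. For E+F- against unsorted cells under DMSO it called 1384 higher and 1445 lower, against 631 and 680. For IWR-1 in E+F+ cells it called no member, with 1 gene higher and 8 lower. With the groups compared alone the counts were 1 for IWR-1 in E+F+ cells (Hoxb6), 0 for IWR-1 in E+F- cells, 1 between E+F+ and unsorted cells under DMSO, and 0 between E+F+ or E+F- and unsorted cells under IWR-1. DESeq2 called 1 for IWR-1 in unsorted cells, and limma on log2(TPM + 1) called 1 (Hoxa2) in the test of the difference between IWR-1 effects.

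Leaving out Sets or single libraries gave 4 to 9 members for E+F+ against E+F- cells with DMSO and 2 to 9 with IWR-1. It gave 0 to 4 for IWR-1 in E+F- cells and 0 to 1 in unsorted cells, 0 to 5 between E+F- and unsorted cells under DMSO, and 0 to 3 between each of E+F+ and E+F- and unsorted cells under IWR-1. No member was called for IWR-1 in E+F+ cells, between E+F+ and unsorted cells under DMSO or for the difference of effects when libraries were left out. The cause of these changes was not tested, but each such fit has fewer samples. Of the 23 calls, 6 held under every alternative and 0 changed direction. With limma on log2(TPM + 0.1), the median of all genes for E+F+ against E+F- cells with DMSO was -0.12 and 1139 genes were higher and 2425 lower, against 1770 and 1911 in edgeR. Of the members, 2 were then higher and 5 lower. Genes under about 1 TPM rest on few counts, and differences there are hard to detect at this depth.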
